A study of Mus musculus with 16 samples.

Results

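The genes described here encode the proteins of the cytosolic ribosome. They were taken by symbol, as all regions of the deposited table whose nearest transcript carries a symbol starting with Rpl or Rps and then a digit, without the Rps6k kinases and the pseudogene symbols. This gave 259 of 177720 regions and 72 of 15543 gene symbols, of which 42 name large-subunit and 29 name small-subunit proteins or their paralogs. The remaining symbol, Rps19bp1, fits the letters but names a protein that binds Rps19. RefSeq lists 85 protein-coding mouse symbols of this form, and the other 13, among them Rpl13a, Rps27a and Rpl7a, were not analysed here.

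The measurement was 5-hydroxymethylcytosine (5hmC), mapped by CMS-IP, in which bisulfite turns 5hmC into cytosine 5-methylenesulfonate and a serum against that product pulls down the DNA. The mice were C57BL/6 Foxp3-eGFP reporters aged 5 to 6 weeks, whose spleen and lymph nodes gave the cells. The 4 groups were sorted naive T cells (CD4+, eGFP-, CD25-, CD62L high, CD44 low), sorted Treg (CD4+, eGFP+), iTreg made from naive cells with TGFβ (TGFβ iTreg), and iTreg made with TGFβ, retinoic acid and vitamin C (RA+VitC iTreg). There were 16 libraries, 2 pull-downs and 2 inputs for each of these. The labels do not say whether the 2 came from separate mice or cultures, so every p-value reflects only how far these libraries vary, possibly for technical reasons. iTreg cultures can hold cells that did not turn on Foxp3, and the labels give no sort after culture.

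Ribosomal proteins join ribosomal RNA in the small (Rps) and large (Rpl) subunits, and their genes are among the most actively transcribed of any dividing cell. The genes are short, start in CpG-rich promoters, and often carry small nucleolar RNAs in their introns. 5hmC is made from 5-methylcytosine by the TET dioxygenases, which vitamin C supports, and is typically found along the bodies of transcribed genes and at enhancers, and not at unmethylated CpG-rich starts.

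Reads falling in regions numbered 1648804 to 9731897 per pull-down and 1028822 to 1563165 per input. The pull-down held 1.49 and 1.72 times as many reads as its input in TGFβ iTreg, 3.88 and 3.14 times in RA+VitC iTreg, 4.9 and 6.33 times in Treg and 5.5 and 6.39 times in naive cells. A count of 0 reads allows up to 3, or 0.297 to 1.79 CPM (counts scaled to the library's size) in the pull-downs, which covers counting error only. Pull-down CPM use library sizes scaled by TMM, input CPM the plain number of reads in regions, and no value gives a total amount of 5hmC. Of 7 Treg marker genes, Foxp3 and Il2ra among them, 7 had more 5hmC in Treg than in naive cells (edgeR, median log2 fold change 1.22). Of 7 B cell markers 2 were higher, beside 20.3% of all genes. Of 6 myeloid markers 3 rose in TGFβ iTreg against naive cells (median 0.89), beside 23.4% of all genes. The part of these markers in the TGFβ results was not tested.

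The promoters show what the regions left out. Sequences from RefSeq (build GRCm38.p6) were found for 54 of the 72 genes, in a window from 250 bases before to 50 after the most upstream start. These windows held 2 to 35 CG dinucleotides with a median of 21, against a median of 13 over 17438 other protein-coding genes (quartiles 3 and 24). The 250 bases before the start are printed for 4 genes that recur in the results, on the strand of the gene, with every CG in capitals. Rps21 lies at chr2:180257129-180257378 (plus strand), Rpl35a at chr16:33056203-33056452 (plus), Rpl24 at chr16:55966025-55966274 (plus) and Rpl15 at chr14:18270987-18271236 (minus).
Rps21: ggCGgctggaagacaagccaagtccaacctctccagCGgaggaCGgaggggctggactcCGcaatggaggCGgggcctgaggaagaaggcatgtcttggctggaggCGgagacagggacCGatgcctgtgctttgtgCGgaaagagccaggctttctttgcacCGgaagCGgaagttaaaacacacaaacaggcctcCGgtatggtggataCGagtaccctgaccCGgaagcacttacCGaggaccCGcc
Rpl35a: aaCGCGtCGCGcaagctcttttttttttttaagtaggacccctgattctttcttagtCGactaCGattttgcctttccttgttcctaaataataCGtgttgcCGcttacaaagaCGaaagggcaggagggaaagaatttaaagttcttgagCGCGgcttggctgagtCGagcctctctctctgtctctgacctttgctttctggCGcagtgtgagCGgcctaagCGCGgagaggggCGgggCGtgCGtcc
Rpl24: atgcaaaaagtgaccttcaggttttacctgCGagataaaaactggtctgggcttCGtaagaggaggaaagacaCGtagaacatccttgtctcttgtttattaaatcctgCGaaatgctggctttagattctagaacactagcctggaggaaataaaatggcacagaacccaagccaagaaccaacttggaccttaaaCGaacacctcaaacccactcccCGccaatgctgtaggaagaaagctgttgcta
Rpl15: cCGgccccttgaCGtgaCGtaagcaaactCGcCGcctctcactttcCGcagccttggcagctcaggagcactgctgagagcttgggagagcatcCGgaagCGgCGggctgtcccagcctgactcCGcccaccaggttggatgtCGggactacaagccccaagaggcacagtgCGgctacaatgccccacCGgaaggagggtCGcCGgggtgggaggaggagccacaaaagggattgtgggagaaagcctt

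Rpl35a had 19 CG in this stretch, Rps21 and Rpl15 had 15 each, and Rpl24 had 6. The letters CCGGAAG, the core that ETS factors bind, stood on either strand in 21 of the 54 windows (38.9%) and in 11.8% of the other windows, with 2 copies each before the starts of Rps21 and Rpl15 and 0 before Rpl35a and Rpl24. GGGCGG was in 57.4% of member windows against 46.3%, AAGATGGC in 7.41% against 3.19%, TATAAA in 11.1% against 13.4%, and CACGTG in 7.41% against 7.91%. A match of letters is a description and not a binding site.

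Regions with 5hmC avoided the starts of the ribosomal protein genes and lay over their ends. In mm9, the build of the table, a region of any assignment covered the annotated start of 1 of the 72 genes (Rpl18, 1.39%), against 10.8% of 15471 other genes and 14.7% of the 5111 other genes no longer than the longest member (11772 bp). At 2000 bp into the transcript, 84.7% of the member genes were covered, against 44% of the other genes. Cover peaked 3200 bp after the start, at 90.3% of members and 38.1% of others, which is about the median member length of 3138 bp. At 1000 bp before the start the shares were close, 41.7% and 38.8%.

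**Figure D1:**
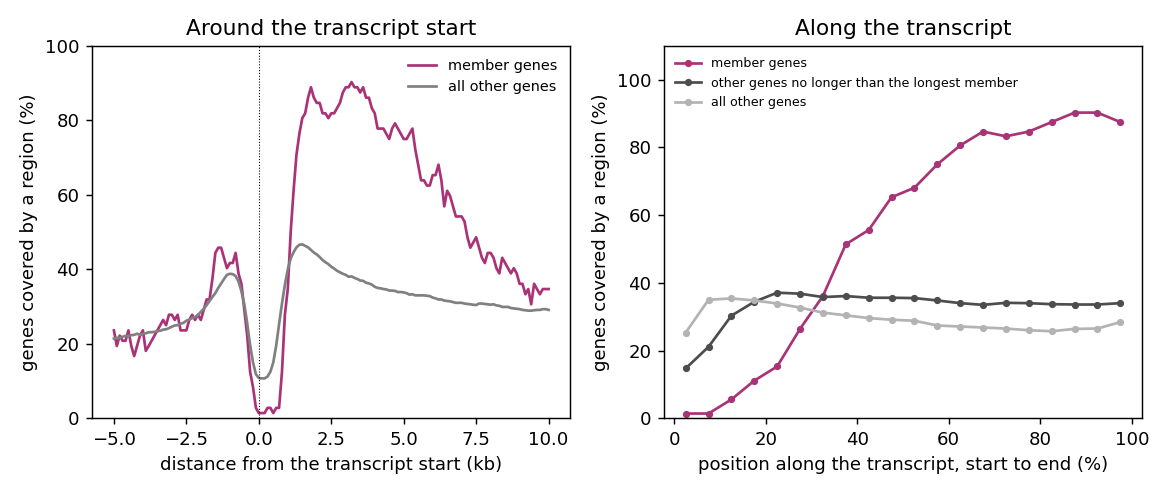
Share of genes covered by a 5hmC region, in percent, by distance from the transcript start in kb (left) and by position from start to end of the transcript (right, 20 equal steps). Member genes dip to 1.39% at the start and reach 90.3% towards the end, while the other genes stay between 10.7% and 46.7% on the left.

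Along the transcript, the first 5 of 20 equal steps were covered in 6.94% of cases in the members. In the other genes no longer than the longest member this was 27.5%. That set reaches up to 11772 bp, against a median member length of 3138 bp, and the part of length in this contrast was not tested. The last 5 steps were covered in 88.1% of cases against 33.8%, and the whole transcript in 55.1% against 32.9%. This is a description of the union of regions over all groups and has no test. Genes without a region are not in the table, in either set.

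By position, 74 of the 259 regions overlapped the transcript they are assigned to (gene bodies, 63 genes), 45 lay on that gene's promoter without reaching the transcript (promoter flanks, 40 genes, at most 2236 bp before the transcript), and 140 lay elsewhere (other regions, 38 genes, median distance 9.79 kb, farthest 166 kb). Body regions were wide, with a median of 3833 bp, against 727 bp for flanks and 775 bp for other regions. This split was chosen after the data were seen. In the table's own labels of gene parts, which count any gene, 139 member regions were intergenic, 66 on a promoter, 36 on a 3′ UTR, 8 on a 5′ UTR, 8 on an exon and 2 in an intron. Of all regions 39.1% were in an intron, and of the member regions 0.772%. Those labels often refer to a neighbour or a guest: 23 of the 74 body regions also overlapped another gene, 9 of them a small nucleolar RNA gene inside the host (such as Snora33 and Snord100 in Rps12). Assignment to a ribosomal protein gene is by nearest transcript and shows no regulation of it.

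Summed over the 74 body regions, pull-down reads in RA+VitC iTreg came to 1220 and 1190 CPM. Naive cells had 1120 and 1150 CPM, Treg 1010 and 1000, and TGFβ iTreg 888 and 913. The 4 groups did not overlap, and the inputs stood between 910 and 990 CPM. On plain library sizes naive cells stood highest (mean 1180 CPM ± 18, SD, n = 2) and RA+VitC iTreg next (1120 ± 13), so the order of these 2 groups turned with the scaling, while Treg (1050 ± 7.9) and TGFβ iTreg (896 ± 6.4) stayed below both. The ratio of pull-down to input over the bodies was 1.22 in naive cells and 1.23 in RA+VitC iTreg. It was 1.06 in Treg and 0.934 in TGFβ iTreg, whose summed body pull-down thus lay below its input on plain library sizes. The promoter flanks ran in another order, with 154 and 157 CPM in naive cells, 170 and 172 in Treg, 201 and 188 in TGFβ iTreg and 220 and 221 in RA+VitC iTreg. Over the 140 other regions TGFβ iTreg (808 and 836 CPM) stood above naive cells (776 and 747), and RA+VitC iTreg had 922 and 914. A few regions carried the rises of flanks and other regions in TGFβ iTreg. Without the upstream region of Rps21, the other regions had 768 and 740 CPM in naive cells and 725 and 759 in TGFβ iTreg, which overlap. Without the flank regions of Rpl24 and Rpl19 the flanks had 140 and 141 CPM in naive cells and 127 and 126 in TGFβ iTreg, a lower level. By gene, 4 members rose and 7 fell over other regions, and 3 rose and 1 fell over flanks, in TGFβ iTreg against naive cells. The shares over all genes are not given for these classes, so these counts are not read as a result about the members. TGFβ iTreg had both the lowest body sums and the lowest ratio of pull-down to input library reads. RA+VitC iTreg had a lower ratio of library reads than Treg but higher body sums. The part of this ratio in these results was not tested.

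**Figure D2:**
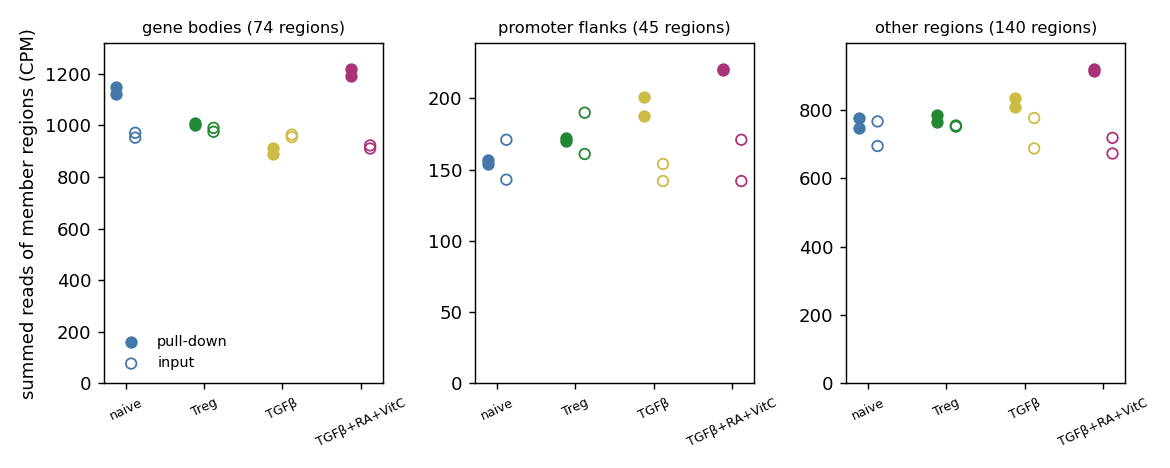
Summed reads (CPM, linear axis from 0) of the 74 gene-body, 45 promoter-flank and 140 other regions of the member genes in each library. Filled points are pull-downs (TMM-scaled) and open points inputs (plain library size). Body sums are lowest in TGFβ iTreg (888 and 913), and the order of naive cells and RA+VitC iTreg turns on plain library sizes. Flank sums are lowest in naive cells (154 and 157), but not without the Rpl24 and Rpl19 regions.

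Per kb of body region the members stood at 4.14 CPM in naive cells, 3.67 in Treg and 3.29 in TGFβ iTreg, and at 4.4 in the RA+VitC cells. All body regions of the table stood at 3.83, 3.8, 3.8 and 4.2. By this measure, which leaves out the inputs, the member level was above that of all bodies in naive cells and RA+VitC iTreg. It was below it in Treg and TGFβ iTreg. Taken over the inputs, the order in Treg turned, with a ratio of 1.06 for members and 1.03 for all bodies. In TGFβ iTreg the members stayed below (0.934 and 0.989). They stayed above in naive cells (1.22 and 1.04) and RA+VitC iTreg (1.23 and 1.02). Among 64 members with a mean of at least 20 pull-down reads, Rpl24 (6.28 CPM per kb of its regions) and Rpl35a (6.01) were among the densest, and Rpl3l (2.29) and Rpl39 (2.34) among the lowest.

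Each pair of groups was then compared gene by gene, once over all regions of a gene (69 of the 72 members passed the filter on low counts, among 14951 genes) and once over gene bodies only (63 members among 13367). A gene was called at a Benjamini-Hochberg adjusted p under 0.05 in edgeR's quasi-likelihood test. The comparisons share groups and are not independent of one another.

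In Treg against naive cells the median over member bodies was lower, with a share of falling members near the background. Over gene bodies 13 members fell and 1 rose, where 18.0% of all gene bodies fell and 18.2% rose, and the median log2 fold change was -0.21 against -0.01 over all bodies. Over all regions of a gene 13 fell and 3 rose, beside a background of 18.9% and 20.3%, with medians of -0.10 and 0.00. The share that fell was near the background in both, and few members rose. The bodies that fell hold 5 small-subunit members, such as Rps18 and Rps19, and 8 large-subunit ones, such as Rpl5, Rpl8, Rpl18 and Rpl29. The count that fell ranged from 5 to 13 bodies with 1 library left out, 5 without naive replicate 2 against 8 when Treg replicate 2 was left out, and the 13 genes became 6 without naive replicate 2.

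Rps18, a small-subunit protein at the head, had a single region (chr17:34088887-34091251) with 16.1 and 17.6 CPM in naive cells and 10.2 and 10.7 in Treg. TGFβ iTreg had 10.8 and 13.6 CPM and RA+VitC iTreg 15.4 and 13.4, so Treg was lowest and did not overlap any other group. The log2 fold change in Treg against naive was -0.70 (SE 0.15, edgeR adjusted p 3e-05 as a gene). Rpl5 and Rpl11 carry the 5S RNA into the large subunit and bind Mdm2 when assembly stalls. The 2 body regions of Rpl5 held 41.4 and 43.3 CPM in naive cells, 31.7 and 33.3 in Treg, 26.9 and 28.6 in TGFβ iTreg and 39.0 and 34.9 in RA+VitC iTreg. Rpl5 bodies fell by 0.39 on the log2 scale in Treg (SE 0.09, edgeR adjusted p 0.00021) and by 0.57 in TGFβ iTreg (SE 0.15, adjusted p 0.0011). Rpl11 bodies, at 0.07 and -0.35, did not pass in either.

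TGFβ iTreg against naive cells gave the lowest member bodies. Of the bodies 15 fell and 1 rose, beside 17.0% and 20.1% of all gene bodies, with a median of -0.28 against -0.03. Over all regions 18 members fell and 7 rose, beside 18.1% and 23.4%, with medians of -0.20 and -0.02. The bodies that fell include Rps15a, Rps16, Rps19 and Rps3a1 of the small subunit and Rpl5, Rpl10a, Rpl17, Rpl18, Rpl21, Rpl24, Rpl27 and Rpl39 of the large one. With plain library sizes the median over all gene bodies moved by more than 0.1, to -0.14, and 20 member bodies fell and 1 rose, beside 23.4% and 17.0% of all bodies, at a median of -0.38. The count that fell ranged from 9 to 16 with a library left out, 9 without TGFβ replicate 2, and the 18 genes became 11 without TGFβ replicate 1.

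Rps15a, a small-subunit protein, had 3 body regions. They summed to 47.9 and 47.5 CPM in naive cells, 44.9 and 45.9 in Treg, 24.5 and 30.0 in TGFβ iTreg and 42.5 and 43.0 in RA+VitC iTreg. TGFβ iTreg stood below the other 3 groups without overlap. The log2 fold change was -0.75 against naive cells (SE 0.15, edgeR adjusted p 7.9e-06), and RA+VitC iTreg exceeded TGFβ iTreg by 0.60 (SE 0.16, adjusted p 0.0032). Rps19, the first gene found mutated in Diamond-Blackfan anaemia, held 38.4 and 39.5 CPM over its body in naive cells, 33.1 and 28.2 in Treg, 22.1 and 32.5 in TGFβ iTreg and 25.2 and 27.6 in RA+VitC iTreg. Its body fell in all 3 groups against naive cells, by 0.36, 0.45 and 0.55 on the log2 scale (edgeR adjusted p 0.0014, 0.015 and 6.2e-05).

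TGFβ iTreg against Treg gave fewer body calls, 6 lower and 2 higher, beside 13.7% and 17.8% of all bodies. The medians were -0.09 over members and -0.03 over all. Over all regions of a gene 8 fell and 6 rose, beside 15.2% and 20.7%, at medians of -0.09 and -0.02. The bodies that rose were Rpl35a and Rpl3, which helps form the peptidyl transferase centre. The counts of lower bodies and of lower genes both dropped to 1 without TGFβ replicate 1.

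RA+VitC iTreg stood above TGFβ iTreg at many member bodies. Here 17 bodies rose and 0 fell, beside 11.3% and 9.13% of all gene bodies, with a median of 0.42 against 0.01. Of the 63 bodies 54 had a log2 fold change above 0, and 6738 of the 13367 over all. Over all regions of a gene 17 rose and 1 fell (Rps21), beside 12.3% and 10.8%, at medians of 0.31 and -0.01. Those that rose include 12 large-subunit bodies, among them Rpl14, Rpl15, Rpl18 and Rpl27a, and 5 small-subunit ones, among them Rps3a1, Rps13, Rps15a and Rps16. With plain library sizes 8 bodies rose and 0 fell, beside 8.81% and 11.8%, at a median of 0.36 against -0.06 over all bodies. Over all regions 7 then rose and 1 fell, beside 8.29% and 15.6%. The count of 17 bodies dropped to 5 without TGFβ replicate 1, to 5 without RA+VitC replicate 1 and to 8 without TGFβ replicate 2. DESeq2 called 5. When the change was taken over the inputs, 2 of 59 bodies rose and 0 fell, while the median stayed at 0.43 against -0.06 over all bodies. Shares over all bodies are not given for DESeq2 or for this fit, so those counts are not read as a result about the members. TGFβ iTreg also had the smallest libraries, 1648804 and 2114056 reads, and the part of depth and of the pull-down over input ratio in this result was not tested.

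Rpl18, whose single region spans 7739 bp with neighbours Fam83e and Spaca4, had 34.9 and 35.2 CPM in RA+VitC iTreg and 22.7 and 18.9 in TGFβ iTreg. Naive cells had 32.2 and 34.7 CPM and Treg 26.8 and 23.6, and Treg and TGFβ iTreg lay below the other groups without overlap. The body rose by 0.74 in RA+VitC against TGFβ iTreg (SE 0.19, edgeR adjusted p 0.0013). Rpl15, a large-subunit protein, had 15.4 and 11.7 CPM in RA+VitC iTreg and 8.38 and 7.27 in TGFβ iTreg, with 10.3 and 9.21 in naive cells and 9.15 and 12 in Treg, a log2 fold change of 0.81 (SE 0.30, adjusted p 0.037, over all regions). Rps13, a small-subunit protein, had 49.5 and 43.8 CPM over its body in RA+VitC iTreg and 27.3 to 36.6 CPM in the 6 other pull-downs. It rose against each of the 3 groups, by 0.45, 0.67 and 0.59 against naive cells, Treg and TGFβ iTreg.

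RA+VitC iTreg against Treg gave 20 higher and 3 lower bodies, beside 24.6% and 21.9% of all, at medians of 0.28 and -0.02. Over all regions 24 rose and 5 fell, beside 26.5% and 23.3%, at medians of 0.23 and -0.02. The share of bodies that rose was above the background, and the share that fell was far under it. Plain library sizes moved the all-body median to -0.20 and the members to 12 higher and 5 lower bodies, beside 17.5% and 34.9%, and to 15 higher and 12 lower over all regions, beside 19.6% and 36.0%. The rising bodies include Rpl3 (0.89, SE 0.16) and Rpl27a (0.80, SE 0.19), and the falling ones include Rpl3l and Rpl10a. Rpl10a, which lies beside the exit site for transfer RNA, was also lower in RA+VitC iTreg than in naive cells (-0.59) and in TGFβ iTreg than in Treg (-0.61) over its regions. The 3 lower bodies became 1 without Treg replicate 2, and likewise without either RA+VitC library.

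RA+VitC iTreg against naive cells was mixed and depended on the scaling. With TMM 13 bodies rose and 6 fell, beside 26.6% and 25.3% of all gene bodies, at medians of 0.14 and -0.04. Over all regions 18 rose and 7 fell, beside 29.2% and 26.6%, at medians of 0.10 and -0.02. With plain library sizes the median over all genes moved to -0.18, and 12 members rose and 15 fell, beside 23.1% and 36.9% of all genes, at a median of -0.06. Over bodies 6 then rose and 11 fell, beside 20.6% and 36.5%. The member median stood above that of all genes in both scalings but changed sign, so no direction of the family is given for this pair. The 13 bodies became 7 without RA+VitC replicate 2 and 8 without naive replicate 2.

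**Figure D3:**
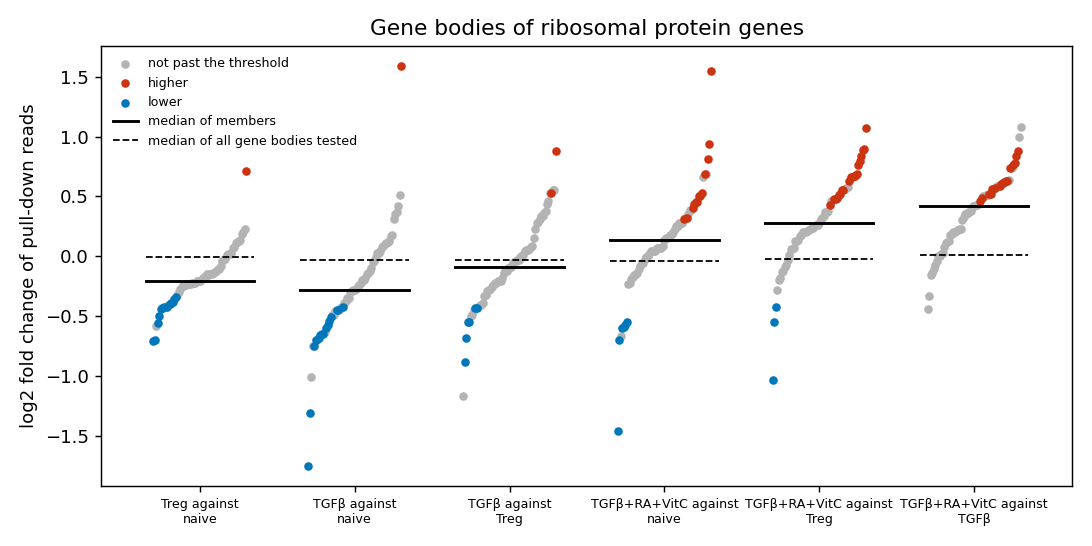
Log2 fold change of pull-down reads over the gene bodies of 63 ribosomal protein genes in each of the 6 comparisons. Red and blue points passed an edgeR adjusted p of 0.05, solid bars mark the member median and dashed bars that of all 13367 gene bodies tested, and the widest gap between them is in RA+VitC against TGFβ iTreg (0.42 and 0.01).

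Single members moved much further than the family, and most of that lay outside the gene body. Rps21, a small-subunit protein, had the largest rise of the family, with log2 fold changes of 2.22 in TGFβ iTreg (SE 0.12) and 1.90 in RA+VitC iTreg (SE 0.11) against naive cells. Its signal came from an intergenic region of 5136 bp that lies 6078 bp upstream (chr2:179980870-179986005, mm9). That region had 8.05 and 7.23 CPM in naive cells, 18.9 and 18.4 in Treg, 82.6 and 76.5 in TGFβ iTreg and 59.8 and 60.5 in RA+VitC iTreg. The 4 groups did not overlap, and the inputs had 9.02 to 22.0 CPM. The region rose by 3.35 in TGFβ iTreg (SE 0.16, edgeR adjusted p 2.5e-97), by 3.04 in RA+VitC iTreg (SE 0.14, adjusted p 8.9e-98) and by 1.27 in Treg (SE 0.16, adjusted p 4.7e-14). The body of Rps21 had 9.91 and 12.7 CPM in naive cells and 6.78 to 12 in the others, and passed in no comparison (-0.28 to 0.22). The printed Rps21 promoter lies between the region and the body, and no region covered its start.

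Rpl24, a large-subunit protein and the gene of the Belly spot and tail mouse mutant, repeated this layout. A flank region of 3315 bp, 576 bp before its transcript (chr16:55962497-55965811, mm9), had 4.71 and 6.54 CPM in naive cells, 12.4 and 10.9 in Treg, 46.1 and 33.4 in TGFβ iTreg and 34.9 and 26.2 in RA+VitC iTreg. It rose by 2.74 (SE 0.20), 2.47 (SE 0.18) and 1.00 (SE 0.18) in TGFβ iTreg, RA+VitC iTreg and Treg against naive cells (edgeR adjusted p 9.7e-41, 6e-43 and 1.2e-06). The Rpl24 body went the other way in TGFβ iTreg, from 31.3 and 28.4 CPM in naive cells to 18.5 and 21.8, a fall of 0.51 (SE 0.17, adjusted p 0.014).

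Rpl19, of the large subunit, had a flank region (chr11:97884775-97887751, mm9) that also lies on the promoter of Cacnb1. It held 10 and 9.51 CPM in naive cells, 9.28 and 9.1 in Treg, 28.1 and 28.6 in TGFβ iTreg and 29.0 and 23.4 in RA+VitC iTreg. Both iTreg groups lay above both sorted groups, by 1.51 (SE 0.20) and 1.48 (SE 0.16) against naive cells (edgeR adjusted p 1.3e-12 and 8.4e-18), and Treg did not pass (-0.10). The Rpl19 body had 18.6 and 17.8 CPM in naive cells and 11.4 and 13.6 in TGFβ iTreg. The flank of Rpl23a, a large-subunit protein near the exit of the nascent chain, had 2.23 and 4.06 CPM in naive cells, 3.51 and 3.91 in Treg, 7.18 and 6.3 in TGFβ iTreg and 7.85 and 9.21 in RA+VitC iTreg.

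The body of Rpl35a itself rose in Treg and both iTreg groups in pull-down reads, and over the inputs in RA+VitC iTreg alone. Its region of 1982 bp (chr16:33058174-33060155, mm9) also lies on the promoters of Iqcg and Lmln. It had 4.83 and 6.34 CPM in naive cells, 7.65 and 10.8 in Treg, 14.4 and 18.4 in TGFβ iTreg and 17.9 and 15.1 in RA+VitC iTreg. The iTreg groups overlapped each other and lay above Treg, which lay above naive cells. The log2 fold changes against naive cells were 0.71 (SE 0.20), 1.55 (SE 0.26) and 1.54 (SE 0.21), with edgeR adjusted p 0.0017, 1.4e-07 and 1.1e-10. The inputs had group means of 8.95 CPM in naive cells, 10.7 in Treg, 11.3 in TGFβ iTreg and 6.68 in the RA+VitC cells. The input libraries of the first 3 groups overlapped, at 11.3 and 6.57 CPM, 10.9 and 10.6, and 14.4 and 8.13. Taken over the inputs, the log2 change against naive cells was 1.79 in RA+VitC iTreg (edgeR adjusted p 0.0023), while 1.15 in TGFβ iTreg (adjusted p 0.061) and 0.44 in Treg (adjusted p 0.58) did not pass.

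Rps19bp1, the Rps19-binding protein, had 7.68 and 6.34 CPM in naive cells and 2.39 and 3.39 in TGFβ iTreg, a fall of 1.23 on the log2 scale (SE 0.42, edgeR adjusted p 0.012). The TGFβ iTreg values rest on few reads, beside 3-read floors of 1.79 and 1.45 CPM. Treg had 4.14 and 6.33 CPM and RA+VitC iTreg 3.79 and 5.3, and neither passed against naive cells (-0.40 and -0.61).

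**Figure D4:**
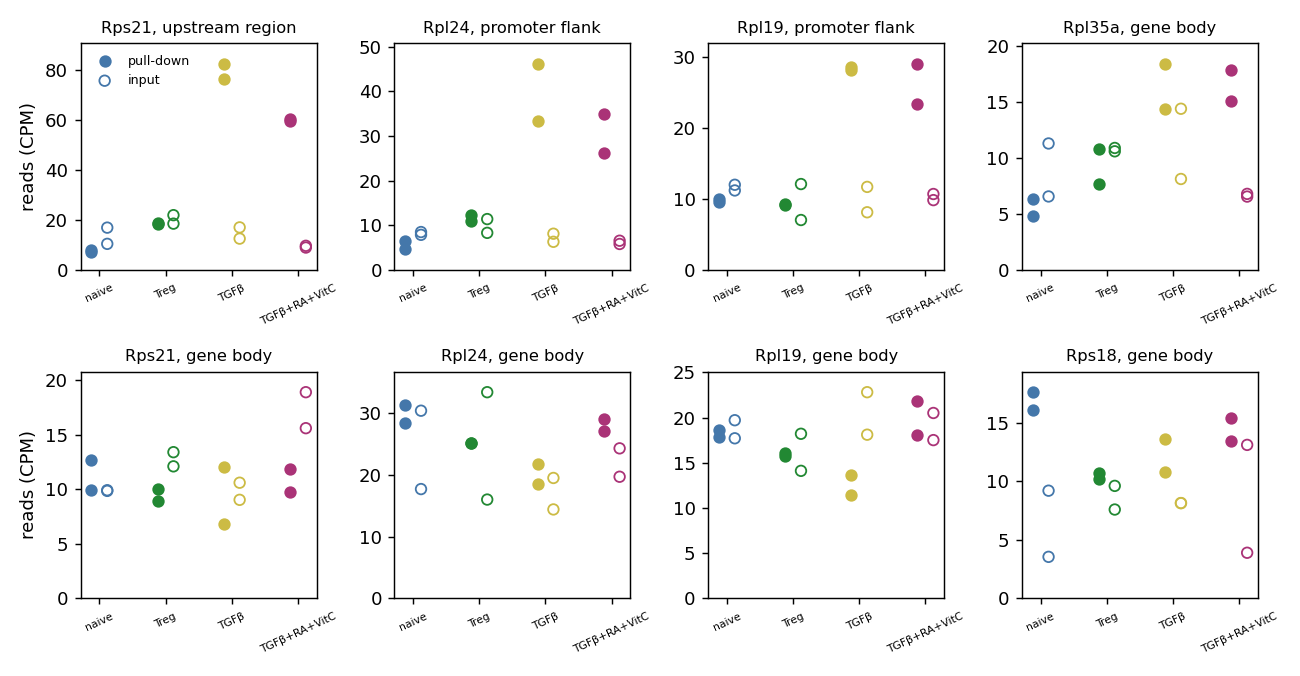
Reads (CPM, linear axis from 0) in each library for the regions of Rps21, Rpl24, Rpl19, Rpl35a and Rps18; filled points are pull-downs and open points inputs. The upstream region of Rps21 reaches 82.6 in TGFβ iTreg and 8.05 or less in naive cells while its body stays between 6.78 and 12.7, and Rps18 is lowest in Treg (10.2 and 10.7).

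At the level of regions, 219 of the 259 member regions were tested among 135412. In Treg against naive 10 rose and 21 fell, beside 13.0% and 10.1% of all regions. In TGFβ iTreg against naive 13 rose and 28 fell, beside 13.1% and 8.22%. In RA+VitC iTreg against naive 39 rose and 12 fell, beside 21.9% and 15.8%, and against TGFβ iTreg 27 rose and 0 fell, beside 4.56% and 1.98%. In TGFβ iTreg against Treg 11 rose and 13 fell, beside 9.58% and 5.82%, and in RA+VitC iTreg against Treg 54 rose and 8 fell, beside 17.8% and 11.4%. Of the 27 regions higher in RA+VitC than in TGFβ iTreg 18 were gene bodies, 2 flanks and 7 other regions. Member regions were wider than all regions (median 1050 bp against 745), and the part of width in these counts was not tested. These 27 became 11 without TGFβ replicate 1 and 14 without RA+VitC replicate 1, and DESeq2 called 10. The 31 regions called in Treg against naive became 12 without Treg replicate 2, the 41 in TGFβ iTreg against naive 20 without TGFβ replicate 2, and the 24 in TGFβ iTreg against Treg 12 without TGFβ replicate 1.

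The regions of lowest p beyond the gene bodies lay near Rpl6, Rpl3, Rps26, Rpl14, Rpl29 and Rps24. A region of 2789 bp, 28541 bp past the end of Rpl6 (chr5:121687792-121690580), had 4.58 and 4.85 CPM in naive cells, 4.01 and 4.95 in Treg, 10.8 and 10.2 in TGFβ iTreg and 27.9 and 21.2 in RA+VitC iTreg. It rose by 2.52 in RA+VitC iTreg against Treg (SE 0.20, edgeR adjusted p 1.1e-34) and by 1.32 against TGFβ iTreg (SE 0.25, adjusted p 7.2e-06). The inputs had 9.72 to 16.3 CPM there, above the naive and Treg pull-downs. A region of 10431 bp past the end of Rpl3 (chr15:79887681-79898111) had 24.4 and 25.6 CPM in naive cells, 39.6 and 38.5 in Treg, 26.3 and 25.2 in TGFβ iTreg and 58.2 and 53.9 in RA+VitC iTreg. TGFβ iTreg stood near naive cells there (log2 difference 0.01, SE 0.18), and Treg and RA+VitC iTreg lay above both.

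A region past Rps26 (chr10:128056362-128058428) was highest in Treg, at 7.4 and 10.4 CPM against 2.08 to 4.84 in the other pull-downs, and rose by 1.76 against naive cells (SE 0.24, edgeR adjusted p 1.1e-11), while its inputs had 4.86 to 11.4 CPM. One far from Rpl14 (chr9:120645410-120646511) was lowest in Treg, at 1.38 and 1.5 CPM against 5.45 and 4.26 in naive cells. One before Rpl29 (chr9:106320100-106321877) had 3.25 and 0.837 CPM in RA+VitC iTreg and 5.82 and 7.23 in naive cells. A flank of Rps24 (chr14:25309391-25309776) had 2.99 and 0.484 CPM in TGFβ iTreg and 5.01 and 7.14 in Treg. The last 3 rest on few reads per library.

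Pull-down and input were set against each other within each group, in 63 members among 13627 genes, relative to the average region. In naive cells 18 members were higher in the pull-down and 7 lower, beside 15.0% and 34.8% of all genes, at medians of 0.19 and -0.22. In Treg 10 were higher and 11 lower, beside 13.1% and 31.8%, at medians of -0.03 and -0.22. In TGFβ iTreg 5 were higher and 9 lower, beside 13.0% and 25.2%, at medians of -0.10 and -0.24. In RA+VitC iTreg 17 were higher and 4 lower, beside 16% and 39.2%, at medians of 0.22 and -0.32. The member median stood above that of all genes in each group. With TMM scaling, which centres on the median gene, 28, 19, 9 and 31 members were higher and 1, 4, 2 and 2 lower in the same order. Of all genes 23.1%, 21.6%, 20.6% and 26.8% were then higher and 21.8%, 16.9%, 9.57% and 20.8% lower.

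**Figure D5:**
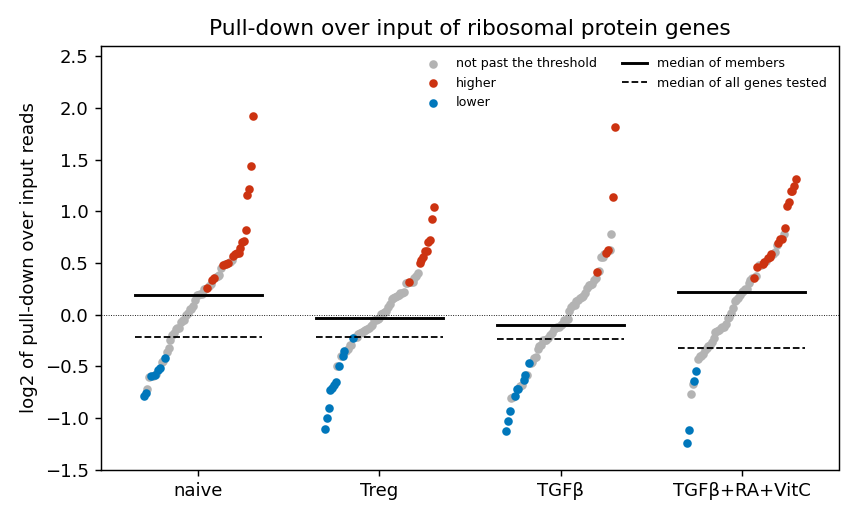
Log2 of pull-down over input reads for 63 member genes in each group, on plain library sizes. Red points were called higher and blue lower (edgeR adjusted p 0.05), solid bars mark the member median and dashed bars that of all 13627 genes, and naive cells (0.19) and RA+VitC iTreg (0.22) have the highest member medians.

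By the mean over the 4 groups, among members with at least 20 input reads, Rpl24 (0.90), Rps13 (0.79), Rps19 (0.71) and Rps21 (0.68) had the highest log2 ratios of pull-down over input. The lowest were Rps27l (-0.75), a p53-induced paralog of Rps27, Rpl15 (-0.70), Rpl34 (-0.69) and Rps20 (-0.46). Rpl22l1, the paralog of Rpl22, which is itself needed for αβ T cell development, lay below its input in naive cells, Treg and TGFβ iTreg (-0.76, -1.11 and -1.13) and did not pass in RA+VitC iTreg (-0.29, SE 0.39). Rpl22 was below its input in Treg (-0.40, SE 0.16, edgeR adjusted p 0.033) and not called in the other groups. For neither gene was a difference between groups called.

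Other members are described for their roles, over all their regions. Rps6, the target of S6 kinase, had 28.9 and 27.1 CPM in naive cells and 25.1 and 17.0 in TGFβ iTreg, a fall of 0.44 (SE 0.18, edgeR adjusted p 0.038). Rps14, a small-subunit protein at the platform, passed in no comparison (-0.06 to 0.18). Rps3, which has a second role in NF-κB signalling, passed in none either (-0.32 to 0.47), nor did Rpl10, which joins the large subunit late in assembly (-0.79 to 0.77). Rpl38, which favours translation of Hox mRNAs, fell in Treg, TGFβ iTreg and RA+VitC iTreg against naive cells (-0.55, -0.50 and -0.56), from 32.6 and 30.5 CPM in naive cells to 16.8 to 25.9 in the other pull-downs. Rps4x, on the X chromosome, had 18.0 and 15.4 CPM in naive cells and 6.58 and 12.1 in TGFβ iTreg, a fall of 0.78 (SE 0.24, edgeR adjusted p 0.006). The tissue-restricted paralog Rpl3l fell in RA+VitC iTreg (-0.71, SE 0.23, edgeR adjusted p 0.0049), Rpl7l1 rose there (0.44), and Rpl36a was not called.

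Related genes are given for comparison, over all regions of a gene. Of all genes 12.3% rose and 10.8% fell in RA+VitC against TGFβ iTreg. In TGFβ iTreg against naive cells 23.4% of all genes rose and 18.1% fell. Of 73 mitochondrial ribosomal protein genes 4 rose and 3 fell in RA+VitC against TGFβ iTreg (median 0.07), and 12 rose and 6 fell in TGFβ iTreg against naive cells (-0.06). Of 21 translation factors and other genes with TOP mRNAs 3 rose and 0 fell in RA+VitC against TGFβ iTreg (0.12), and 4 rose and 1 fell in TGFβ iTreg against naive cells (0.12). Of 31 ribosome biogenesis genes 6 rose and 3 fell (0.01) and 6 rose and 4 fell (-0.07) in those comparisons. Of 6 ribosomal protein genes whose symbols fall outside the rule, such as Rpsa and Rplp0, 1 rose and 1 fell in each. No difference between these lists and the members was tested.

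The inputs were compared in the same way as background. Among 60 members tested, 0 were called in any of the 6 pairs by edgeR, and 0 to 6 had an unadjusted p under 0.05. Over all 12824 genes 0 to 36 were called.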

How the data were processed

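CMS-IP pull-down and input DNA of 4 groups of mouse CD4 T cells was analysed, with 2 libraries of each kind per group. The authors deposited raw read counts per region for the union of broad peaks, named after MACS2 at q 0.01 in the file, with mm9 coordinates, region widths (another column, in bp) and gene parts per the file headers. MACS2 (2.1.0.20151222), SAMtools (1.7), Trim Galore (0.4.2) and bcl2fastq (2.20.0.442) are named, per the submitters' processing notes. Not given in the sources used here: the aligner, the counter, the pooling for peak calls and the handling of reads that match several places. Ribosomal protein genes have many processed pseudogenes. The spiked amplicons were not used.

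Counts were summed per gene symbol and tested with edgeR 4.0.16 in R 4.3.3 (quasi-likelihood, TMM, filterByExpr minimum count 10, Benjamini-Hochberg, threshold 0.05) over the 8 pull-downs together, with 4 residual degrees of freedom. Pull-down was set against input over 16 libraries on plain library sizes. DESeq2 1.42.0 was an alternative. The code was tested on simulated data. Depth and the 3-read floors are given with the results.

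Genes named with values are up to 4 with the largest change in each direction per pair among called members with a mean of at least 20 reads, the 4 highest and 4 lowest by pull-down over input, and members with known roles. Regions are the 2 of lowest p per direction and pair. The members and lists were chosen with earlier results of these data known. The split by position, the gene-body and input-difference fits, the class sums without single regions, the cover profiles, the 5 motifs, the promoters shown, and the regions of Rpl19, Rpl23a and Rpl35a were chosen after the data were seen. Results for some members are not reported here.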

Additional observations from a re-analysis of the deposited data

Results flagged for a closer look

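For 2 named members the pull-down over input ratio was above 0 in one group and below 0 in another, and the difference passed its own test. Over all its regions Rpl6 had a log2 ratio of 0.35 in RA+VitC iTreg and -0.23 in Treg, a difference of 0.59 (edgeR adjusted p 0.00043). Its body did not show this, at 0.38 in RA+VitC iTreg and 0.40 in Treg. Its other regions rose by 0.79 in pull-down reads in RA+VitC iTreg against Treg. Rps15a had -0.47 in TGFβ iTreg and 0.35 in naive cells, a difference of -0.82 (edgeR adjusted p 0.0006), and its body alone had -0.55 and 0.42.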

How the results depend on the processing

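Counts are given as members higher and lower, in the order Treg, TGFβ iTreg and RA+VitC iTreg against naive, RA+VitC against TGFβ iTreg, and TGFβ and RA+VitC iTreg against Treg; the cause of a change was not tested unless stated. DESeq2 called 1 and 3, 4 and 11, 13 and 5, 7 and 0, 6 and 2, and 16 and 2 genes. With regions on a gene part only the counts were 1 and 12, 4 and 14, 17 and 5, 12 and 0, 4 and 4, and 24 and 3. Gene bodies alone gave 1 and 13, 1 and 15, 13 and 6, 17 and 0, 2 and 6, and 20 and 3. Promoter flanks alone gave 1 and 0, 3 and 1, 5 and 0, 1 and 0, 2 and 1, and 6 and 1, and other regions alone 4 and 4, 4 and 7, 7 and 5, 4 and 0, 4 and 4, and 8 and 3, both from fewer reads. The change over the inputs gave 0 and 1, 2 and 8, 7 and 2, 1 and 0, 1 and 2, and 6 and 3. Plain library sizes gave 3 and 12, 5 and 23, 12 and 15, 7 and 1, 6 and 11, and 15 and 12. Where no share over all genes is given above, the counts of this section are not read as a result about the members.

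Regions called by DESeq2 numbered 6, 16, 30, 10, 9 and 28, and plain library sizes gave 12 in RA+VitC against TGFβ iTreg. Same-numbered libraries did not deviate together (r -0.016 for naive and Treg, 0.0095 for the iTreg groups over 14951 genes), so the numbers were not taken as pairs. With the replicate block the genes called were 3 and 14, 6 and 13, 15 and 5, 17 and 1, 6 and 6, and 22 and 4, and the regions 27 in TGFβ iTreg against naive, 15 in TGFβ iTreg against Treg and 37 in RA+VitC iTreg against Treg. With TMM in place of plain sizes, 28, 19, 9 and 31 members were higher in the pull-down of naive, Treg, TGFβ and RA+VitC cells and 1, 4, 2 and 2 lower. Lower counts were 4 in naive cells and 6 in Treg with regions on a gene part only, and 5 in Treg and 2 in RA+VitC iTreg with bodies only. Inputs called with plain sizes were 0, 1 and 23 genes in Treg and TGFβ iTreg against naive and RA+VitC iTreg against Treg.

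With 1 library left out, the genes higher ranged over 2 to 3, 4 to 7, 16 to 19, 7 to 17, 4 to 6 and 20 to 25, and those lower over 6 to 14, 11 to 18, 5 to 8, 0 to 1, 1 to 9 and 2 to 5. Bodies higher ranged over 0 to 2, 1 to 1, 7 to 16, 5 to 17, 1 to 2 and 16 to 22, and lower over 5 to 13, 9 to 16, 4 to 6, 0 to 0, 1 to 7 and 1 to 3. Regions called ranged over 12 to 32, 20 to 41, 36 to 59, 11 to 26, 12 to 24 and 43 to 66. Members higher over input ranged over 13 to 18, 7 to 10, 3 to 6 and 14 to 17, and lower over 5 to 8, 8 to 11, 5 to 9 and 4 to 5. A lone library is assumed to vary like the other groups.

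Of the 44 named values, over all settings 564 kept direction and call, 120 lost the call and 13 turned direction. Rps21 turned to -0.27, -0.26, -0.05 and 0.21 with regions on a gene part only, and to -0.27, -0.28, -0.06, 0.22 and -0.01 over its body, which leaves out the upstream region. Rpl29 turned to 0.07 and Rpl37a to -1.48 over flanks, and Rpl24 to -0.51 and Rpl19 to -0.29 over bodies. The TGFβ pull-downs, with 1648804 and 2114056 reads, have the highest 3-read floors (1.79 and 1.45 CPM).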
